A study of Saccharomyces cerevisiae with 79 samples.

Results

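The composition of labelled RNA was compared between a short and a long labelling in the wild-type strain BY4741 of Saccharomyces cerevisiae, called WT. Growing cultures in synthetic medium were given 4-thiouracil, a uracil analogue that cells build into new RNA. Labelled RNA was biotinylated, pulled down on streptavidin beads. The libraries were made by MPE-seq (multiplexed primer extension sequencing): a primer just past each chosen intron starts the reads, so spliced and unspliced RNA are both counted. A fixed amount of Schizosaccharomyces pombe RNA, transcribed in vitro with the label, was added to each sample. The comparison takes 6 of the 79 samples of the series, chosen by time label: the nominal 90 s library (92, 90 and 91 s in courses 1, 2 and 3) and the nominal 990 s library (990, 984 and 993 s) of each of 3 time courses. The measured value is the share of each of 308 intron targets, from 297 genes, in all intron target reads of a library, given here as reads per 100000. The other WT times (0 s, and 120 to 720 s) and a further series of BY4741 labelled WT_30 serve for comparison. WT_30 has 2 courses, a 3600 s time and total labelled S. pombe RNA as its spike-in, and the labels do not say how else it differs or whether each course was a culture of its own. The p-values therefore reflect only how far courses differ, which may be technical.

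In a culture that starts to make labelled RNA at time 0, labelled transcripts pile up until decay balances synthesis. A transcript that turns over quickly reaches its plateau early and then loses share to those that go on accumulating, so a falling share is commonly read as a short-lived transcript and a rising share as a stable one. In budding yeast few genes have introns, and ribosomal protein genes are prominent among those that do. A share also depends on every other RNA in the library, on the number of uridines available for label and on unlabelled RNA that sticks to the beads.

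Shares moved by several fold for a limited set of transcripts. Of 276 targets with a mean of at least 20 reads, 17 rose (6.16%) and 9 fell (3.26%) at an adjusted p under 0.05 in edgeR's quasi-likelihood test with the course as a block. The libraries of the times did not overlap in 85 targets that were higher at 990 s (30.8%) and 37 that were lower (13.4%), and 25 of the 26 called targets are among them. The leading risers were UBC9, BET4, PRE3, BET1, GPI15 and ERD2, and the leading fallers URA2, CGI121, NOG2, SNR17B and SPT14. All 26 calls carried the same adjusted p of 0.0489, just inside the threshold, and no target was called with edgeR's robust dispersion estimates (54 rose and 32 fell at an unadjusted p under 0.05) or with the count minimum raised to 100 (55 and 26). Unadjusted, the test reported here had 55 rises and 32 falls. DESeq2 called 29 rises and 27 falls. Without course 3, 89 targets rose (32.1%) and 55 fell (19.9%); without course 1, 5 rose and 2 fell; without course 2 none was called (26 and 16 unadjusted). The median log2 change over all tested targets was 0.11. With ribosomal protein targets left out of the total, 11 targets rose and 18 fell of 172.

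The introns of the leading targets are printed here because every read is defined by them: the primer lies past the intron, and whether the intron is present decides which state the read counts for. The sequences are the transcribed strand of the R64 genome, 5′ to 3′. Capitals mark GTATGT at the first base, the common 5′ splice site; TACTAAC, the common branch site; and the closing AG. Risers come first, from UBC9 to SNC1, then the fallers CGI121 and SPT14. URA2 has no annotated intron in this annotation and none is shown. The leading fallers NOG2 and SNR17B are not printed either.
UBC9, chrIV:337525-337634, plus strand: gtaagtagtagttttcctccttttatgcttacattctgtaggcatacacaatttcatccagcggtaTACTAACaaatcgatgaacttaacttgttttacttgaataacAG
BET4, chrX:387349-387435, minus strand: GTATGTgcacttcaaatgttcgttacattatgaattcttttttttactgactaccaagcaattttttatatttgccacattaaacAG
PRE3, chrX:435228-435343, plus strand: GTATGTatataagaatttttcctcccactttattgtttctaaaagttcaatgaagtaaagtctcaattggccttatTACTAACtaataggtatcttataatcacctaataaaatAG
BET1, chrIX:348364-348494, minus strand: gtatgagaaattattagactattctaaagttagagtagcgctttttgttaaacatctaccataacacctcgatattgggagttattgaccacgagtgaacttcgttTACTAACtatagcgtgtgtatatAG
GPI15, chrXIV:557611-557684, plus strand: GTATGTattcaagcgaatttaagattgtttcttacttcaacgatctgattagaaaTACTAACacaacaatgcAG
ERD2, chrII:142750-142846, minus strand: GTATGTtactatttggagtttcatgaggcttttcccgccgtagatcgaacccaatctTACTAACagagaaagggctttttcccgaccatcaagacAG
SNC1, chrI:87388-87500, plus strand: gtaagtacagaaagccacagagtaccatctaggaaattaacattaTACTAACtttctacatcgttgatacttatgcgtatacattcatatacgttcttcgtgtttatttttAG
CGI121, chrXIII:206098-206203, plus strand: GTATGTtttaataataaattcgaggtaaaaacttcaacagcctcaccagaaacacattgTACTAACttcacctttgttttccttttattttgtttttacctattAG
SPT14, chrXVI:218647-218746, plus strand: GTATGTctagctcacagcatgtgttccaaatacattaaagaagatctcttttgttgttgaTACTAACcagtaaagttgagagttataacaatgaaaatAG
UBC9, SNC1 and BET1 do not start with GTATGT, and BET4 holds no TACTAAC. Of 259 target introns annotated in R64, 69.5% start with GTATGT and 83.0% hold TACTAAC on the transcribed strand, the only strand searched; the motifs share no position in any printed intron. The 87 ribosomal protein introns had a median length of 405 bases and the 172 others 99 bases.

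UBC9, the SUMO-conjugating enzyme, gained the most of the called targets. It took 34.1, 28.0 and 21.0 reads per 100000 at 90 s and 100, 107 and 129 at 990 s in courses 1, 2 and 3. Every 990 s library lay above every 90 s library, and the log2 change was 2.04 ± 0.29 (SE, adjusted p = 0.0489, edgeR). PRE3, a catalytic subunit of the proteasome, went from 91.2, 76.2 and 75.6 to 302, 253 and 316 (1.84 ± 0.20). PBA1, a proteasome assembly chaperone, also rose, by a log2 of 0.96 ± 0.19. PRE3 and PBA1 belong to none of the lists. In the ubiquitin list, which holds UBC9, 1 of 9 tested targets rose and none fell, where 6.16% of all targets rose and 3.26% fell, and the median log2 change was 0.74 against 0.11 for all targets.

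The secretory list held 6 of the 17 risers. BET4, a subunit of the enzyme that attaches lipid to Rab proteins, rose from 19.9, 17.8 and 25.3 to 49.8, 75.3 and 123 reads per 100000 (log2 change 1.90 ± 0.29). BET1, a SNARE of vesicles between endoplasmic reticulum and Golgi, went from 67.3, 67.2 and 80.4 to 189, 216 and 396 (1.83 ± 0.24). In both the times did not overlap, and course 3 had the highest value at 990 s. ERD2, the receptor that returns escaped proteins to the endoplasmic reticulum, rose from 341, 333 and 299 to 981, 667 and 1318 (1.55 ± 0.28). SNC1, a SNARE of secretory vesicles, rose by 1.40 ± 0.27 and SAR1, the small GTPase of COPII coats, by 1.27 ± 0.21. VPS75, a histone chaperone that the secretory list holds for its name, rose by 1.53 ± 0.27.

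Of 22 secretory targets tested, 6 rose and none fell, VPS75 included, where 6.16% of all targets rose and 3.26% fell. Their median log2 change was 0.94, against 0.11 over all targets. The list as a whole took 1.90%, 1.78% and 1.78% of reads at 90 s and 3.37%, 3.06% and 3.76% at 990 s. It was higher at 990 s in each course, and the exact paired permutation test gave a two-sided p of 0.25, the smallest 3 pairs allow. At the other end of the list, GOT1, a Golgi membrane protein, had 9.58, 5.76 and 1.73 reads per 100000 at 90 s and 2.21, 0.827 and 1.34 at 990 s (log2 change -1.78 ± 0.55, adjusted p = 0.0993), with overlap between the times.

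Further risers had varied roles. GPI15, a subunit of the enzyme that starts the synthesis of GPI anchors, went from 7.75, 5.98 and 8.87 to 16.9, 21.9 and 30.0 reads per 100000 (log2 change 1.59 ± 0.29). PTC7, a mitochondrial protein phosphatase, rose by 1.37 ± 0.28, PHO85, a cyclin-dependent kinase, by 1.26 ± 0.26 and CPT1, which makes phosphatidylcholine, by 1.25 ± 0.26. The other 5 risers, named here because they complete the list, were CNB1, KEI1, TAF14, TDA5 and PBA1, with log2 changes of 0.96 to 1.11. COX4, a subunit of cytochrome c oxidase, had 12.5, 8.23 and 16.6 reads per 100000 at 90 s and 36.2, 36.2 and 30.1 at 990 s, without overlap, but missed the threshold (1.5 ± 0.34, adjusted p = 0.0555). OM14, a mitochondrial outer membrane protein named after its values were seen, had the highest log2 change of all, 2.09 ± 0.51, and was not called (adjusted p = 0.0684). It had 151, 122 and 90.5 reads per 100000 at 90 s and 383, 342 and 1045 at 990 s, and without course 3 its log2 change was 1.42 ± 0.16. The mitochondrial list holds neither PTC7 nor OM14. None of its 10 targets was called, and their median log2 change was 0.80.

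**Figure D1:**
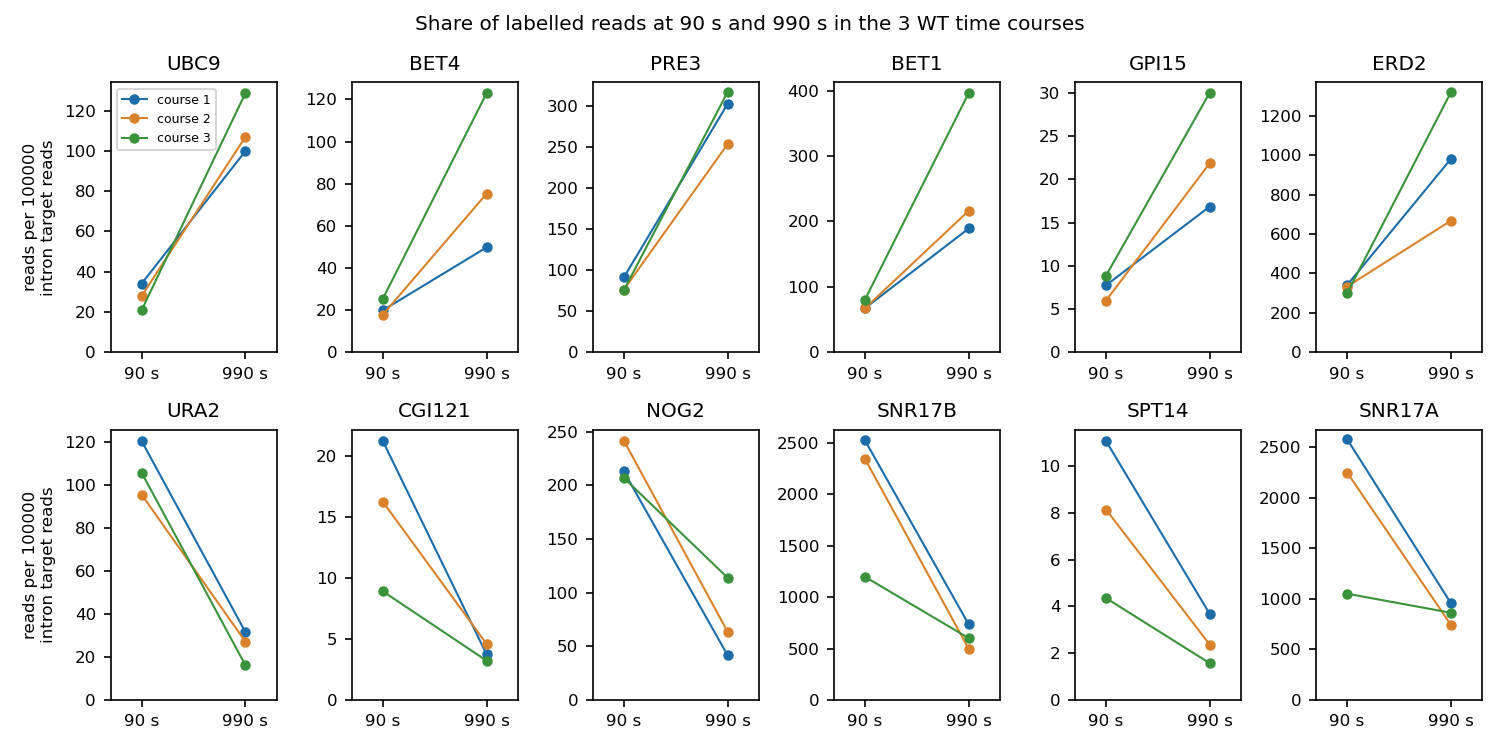
Share of intron target reads (reads per 100000, y axis from 0) at nominal 90 s and 990 s, with 1 line per WT time course. The upper row holds 6 leading risers, whose 990 s values all lie above their 90 s values; the lower row holds 5 fallers and SNR17A, whose adjusted p was 0.0864, and course 3 starts lower than the other courses in CGI121, SNR17B, SPT14 and SNR17A.

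URA2 lost the most of the called targets. It encodes the enzyme of the first steps of pyrimidine synthesis, and it took 120, 95.4 and 106 reads per 100000 at 90 s and 31.5, 27.1 and 16.1 at 990 s. The times lay far apart in every course, with a log2 change of -2.15 ± 0.28 (SE, adjusted p = 0.0489, edgeR). NOG2, a GTPase of large ribosomal subunit assembly whose intron hosts a small nucleolar RNA, fell from 213, 242 and 207 to 41.6, 63.5 and 114 (-1.72 ± 0.35). Its 90 s values lay close together while those at 990 s spread, with course 3 the highest.

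CGI121, a subunit of a tRNA-modifying complex, had 21.2, 16.2 and 8.89 reads per 100000 at 90 s and 3.74, 4.59 and 3.22 at 990 s (-1.93 ± 0.33). SPT14, the catalytic subunit of the same GPI anchor enzyme to which GPI15 belongs, had 11.1, 8.15 and 4.36 against 3.68, 2.37 and 1.57 (-1.62 ± 0.27). The subunits GPI15 and SPT14 thus moved in opposite directions, each without overlap between the times. BUD25, YPR202W and YDR535C also fell, with means of 47.0, 75.5 and 95.5 reads; the last pair are named only because they complete the list, and YPR202W resembles other genes near chromosome ends, so its reads may be shared. RPS13 fell by 1.28 ± 0.25 on the log2 scale, the only called ribosomal protein target. Its times overlapped because the course 3 value at 90 s, 81.7, lay below the course 1 value at 990 s, 83.2. The estimated unlabelled background of RPS13 at 90 s was 36.3%, 38.6% and 78.5% of its reads in courses 1, 2 and 3.

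In the RNA processing list, 3 of 19 targets tested fell (BUD25, CGI121 and NOG2) and none rose, where 3.26% of all targets fell and 6.16% rose. The median log2 change was 0.10, against 0.11 over all targets, and CGI121 changed sign on spliced reads alone. NOG2 acts in ribosome assembly. DBP2, an RNA helicase whose intron takes part in its own control, had 52.5, 58.8 and 53.1 reads per 100000 at 90 s and 17.4, 22.5 and 36.2 at 990 s, without overlap (-1.18 ± 0.30, adjusted p = 0.0706). NMD2, a factor of nonsense-mediated decay, had 47.8, 29.5 and 57.7 against 27.9, 33.3 and 16.7, with overlap (-0.80 ± 0.43, adjusted p = 0.26). YSF3, a splicing factor subunit, stood at the upper end (0.94 ± 0.29, adjusted p = 0.0968).

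SNR17A and SNR17B encode U3, a small nucleolar RNA that is known as a stable RNA, yet their shares were lower at 990 s. SNR17B had 2527, 2347 and 1199 reads per 100000 at 90 s and 735, 498 and 601 at 990 s, a fall of 1.67 ± 0.30 on the log2 scale. SNR17A had 2578, 2248 and 1050 against 957, 743 and 862 (-1.11 ± 0.33, adjusted p = 0.0864). Both were lower at 990 s in all 3 courses, without overlap, and course 3 was by far the lowest at 90 s. The copies are nearly identical, so reads may be shared between them. Together they took 5.11%, 4.6% and 2.25% of reads at 90 s and 1.69%, 1.24% and 1.46% at 990 s. Counted on spliced reads alone, SNR17B was not called (-1.26) and neither was SNR17A (-1.0).

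Ribosomal protein targets, 104 in all and each of them tested, changed little as a group. They took 84.4%, 85.7% and 88.4% of reads at 90 s and 84.1%, 85.4% and 83.0% at 990 s. Each course was lower at 990 s, by under 1 percentage point in courses 1 and 2 (exact paired permutation test, two-sided p = 0.25). With the 0 s signal of the same course subtracted after scaling by spike-in reads, the share was 81.1%, 77.6% and 85.6% at 90 s and 84.0%, 85.3% and 82.9% at 990 s, so it was then higher at 990 s in courses 1 and 2 and lower in course 3. None of the 104 rose and 1 fell, where 6.16% of all targets rose and 3.26% fell. Their median log2 change was -0.11, against 0.49 for the 172 other targets. The highest was RPL43B, with 743, 749 and 1188 reads per 100000 at 90 s and 1144, 1729 and 1777 at 990 s (0.80 ± 0.22, adjusted p = 0.0859), with overlap between the times. RPS18B stood highest among small subunit targets, at 0.56 ± 0.21. RPL30 and RPS14B, known for proteins that bind their own transcripts and hold back splicing, had -0.37 ± 0.20 and -0.02 ± 0.20, and RPS14A had -0.04 ± 0.35; none of these was called.

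RPL18B, the lowest of the large subunit targets, stood apart in course 1. It had 722, 375 and 82.6 reads per 100000 at 90 s and 69.0, 104 and 141 at 990 s (-1.55 ± 0.89, adjusted p = 0.273). At 0 s it had 3356 in course 1 against 199 and 250 in the others, and course 1 held 4685 at 540 s. At 90 s, 96.0%, 93.0% and 62.3% of its reads were unspliced.

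Other fixed targets gave values without calls. ACT1, encoding actin, had 438, 478 and 283 reads per 100000 at 90 s and 233, 270 and 264 at 990 s, a log2 change of -0.61 ± 0.24 (adjusted p = 0.156). HAC1, whose intron is removed by Ire1 and not by the spliceosome, had -0.52 ± 0.21, and GCR1, an activator of glycolytic genes, -0.44 ± 0.43. The mRNA export factors YRA1 and MTR2 had 0.54 ± 0.52 and 0.64 ± 0.32, and LSM7, a subunit of Lsm complexes, 0.88 ± 0.28. Among 5 meiotic targets tested of 14, SAE3 had 7.0, 3.89 and 0.351 against 0.111, 0.504 and 0.174 (-3.42 ± 0.99, adjusted p = 0.0859) on a mean of 31.0 reads, and the median was -0.66. The estimated unlabelled background of SAE3 at 90 s was 151%, 42.2% and 288% of its reads, so in courses 1 and 3 its value at 90 s does not exceed background and its change is not one in labelled share. MND1, the highest of them, had 0.48 ± 0.36.

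The remaining lists held few calls, where 6.16% of all targets rose and 3.26% fell. Signalling targets had 3 risers of 9 (CNB1, PHO85 and PTC7) with a median of 0.49, and BMH2, a 14-3-3 protein, was lowest at -0.30 ± 0.23. Transcription and chromatin targets had 2 risers of 14 (PHO85, in both lists, and TAF14), a median of 0.15 and HPC2, a histone gene regulator, lowest at -0.78 ± 0.26. No target was called among 14 cytoskeletal (median 0.60, GIM5 highest at 1.17 ± 0.34), 12 snoRNA host (median -0.20), 10 self-regulated (median -0.03) or 3 translation factor targets (TEF4 0.57 ± 0.30, ASC1 -0.82 ± 0.45). The snoRNA host list leaves out NOG2, a called faller whose intron also hosts a small nucleolar RNA. Of the lists with low values, UBC12 was lowest in the ubiquitin list at -0.14 ± 0.49 and RIM1 in the mitochondrial list at -0.38 ± 0.38.

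Where a gene has several targeted introns, its targets report on the same gene through different primers. Both targets were tested in 8 genes, and their log2 changes had the same sign in 4. The median absolute difference was 0.44 and the widest 0.84, in EFM5 (0.57 ± 0.28 for the first and -0.26 ± 0.27 for the second target). YOS1, a protein of endoplasmic reticulum to Golgi traffic, had 1.18 ± 0.26 and 0.50 ± 0.40, and RPL7B had -0.23 ± 0.18 and 0.45 ± 0.22. SUS1, VMA9, RPL7A, RPS22B and TAD3 differed by 0.45, -0.44, -0.22, -0.39 and 0.19 between the first and second target. On spliced reads alone the EFM5 targets had 0.62 and 0.87 and the SUS1 targets 0.70 and 0.71. The differences of RPS22B and RPL7A widened there, to -0.66 and -0.27. HMRA1, DYN2 and HOP2 had 1 tested target each. No target of these genes was called.

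The libraries between the end points placed the changes in time. A slope on log2 labelling time over the 27 libraries after 0 s was called upward for 64 of 279 targets (22.9%) and downward for 51 (18.3%), and these include all 26 targets called above, with the same signs. The end points are part of that fit, so it is not an independent check. Without course 3 it called 39 rises and 30 falls. UBC9 rose by 0.69 ± 0.08 per doubling of time and URA2 fell by 0.68 ± 0.08. By mean share, all 9 fallers were highest at 120 s and none at 90 s, while all 17 risers were highest at 390 s or later. Of all 276 tested targets, 61 were highest at 120 s, 23 at 90 s and 123 at 390 s or later. Both groups were picked on their 90 s and 990 s values, so early and late peaks are in part built in. URA2 ran from 107 ± 13 reads per 100000 (SD, n = 3) at 90 s to 154 ± 35 at 120 s, 55.8 ± 20 at 300 s and 24.9 ± 7.9 at 990 s. UBC9 ran from 27.7 ± 6.6 to 56.8 ± 19 at 300 s, 144 ± 92 at 540 s and 112 ± 15 at 990 s.

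**Figure D2:**
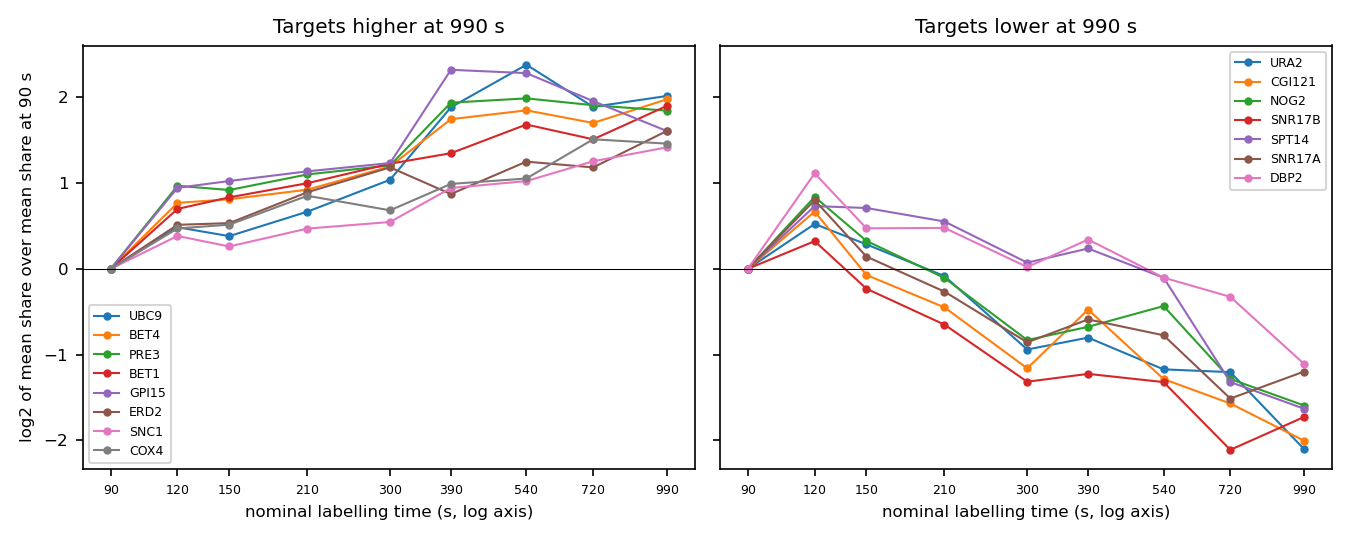
Log2 ratio of the mean share of each target (n = 3 courses) to its mean share at 90 s, against nominal labelling time in seconds on a log axis. Targets in the left panel stand at 1 or more by 990 s; targets in the right panel lie above 0 at 120 s and below -1 at 990 s.

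In libraries that the comparison did not use, 720 s against 120 s, all 26 targets kept their sign. Of the 17 risers 1 was called (UBC9) and of the 9 fallers 7, where 1 of 277 targets rose (0.361%) and 17 fell (6.14%) in all, or 7 and 30 with TMM factors. These libraries come from the same courses, and the counts were 0 and 3 without course 1, 0 and 0 without course 2 (5 and 31 unadjusted) and 6 and 33 without course 3. At 120 s the mean share of each faller was higher than at 90 s, and for NOG2 it was 394 ± 111 against 220 ± 19. Along time, by the slope fit, 22.9% of all 279 targets rose and 18.3% fell. Of 23 secretory targets 10 rose and 2 fell, and 5 of 9 ubiquitin and 6 of 10 mitochondrial targets rose and none fell. Of 14 cytoskeletal targets 5 rose and 1 fell, and of 19 RNA processing targets 3 rose and 7 fell. The mitochondrial and cytoskeletal lists had no call between the end points. Ribosomal protein targets had 9 rises and 21 falls of 104, with the falls near the share over all targets.

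The 90 s libraries held a large part of unlabelled RNA, which touches every value above. Intron target reads per spike-in read were 41.4, 45.3 and 67.2 at 0 s, 139, 87.0 and 181 at 90 s, and 5602, 6919 and 5188 at 990 s. Scaled by spike-in reads, the 0 s signal equals 29.9%, 52.0% and 37.1% of the reads at 90 s and 0.739%, 0.655% and 1.29% at 990 s. On the same scale all 276 targets rose in amount, with a median log2 change of 5.61, so a fall here is a fall in share and not in labelled amount. The 0 s libraries were 92.2%, 93.2% and 93.1% ribosomal protein reads. The estimated background at 90 s, as a percentage of a target's own reads, was uneven. Its median over ribosomal protein targets was 30.1%, 52.2% and 37.3%, and over the 172 other targets 16.3%, 31.4% and 19.8%. Over the 17 risers, which lay near the other targets, it was 16.4%, 32.0% and 22.3%. The 9 fallers had 11.1%, 13.8% and 5.51%. They were called partly for high reads at 90 s, which itself lowers this percentage.

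With the 0 s signal subtracted, all 26 targets kept their sign and none was called (limma on log2 of the reads per 1000000 plus 1; lowest adjusted p = 0.0925; 27 rose and 27 fell without adjustment). Limma on the same scale without subtraction also called none (lowest adjusted p = 0.0505), so the loss of calls is not particular to subtraction. URA2 changed from -2.15 to -2.72, NOG2 from -1.72 to -2.38, UBC9 from 2.04 to 2.21 and PRE3 from 1.84 to 1.51. The first value of each pair is from edgeR and the second from limma, so the pairs also differ in method. The median fell to 0.02 over all targets and to 0.13 over those outside the ribosomal protein genes, and the secretory median to 0.47. For RPL18B the subtraction turned -1.55 into 5.60. Its estimated background at 90 s was 139%, 27.7% and 112% of its reads in courses 1, 2 and 3. Its 90 s values in courses 1 and 3 were therefore set to 0, and 5.60 is not a measured rise in labelled share.

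**Figure D3:**
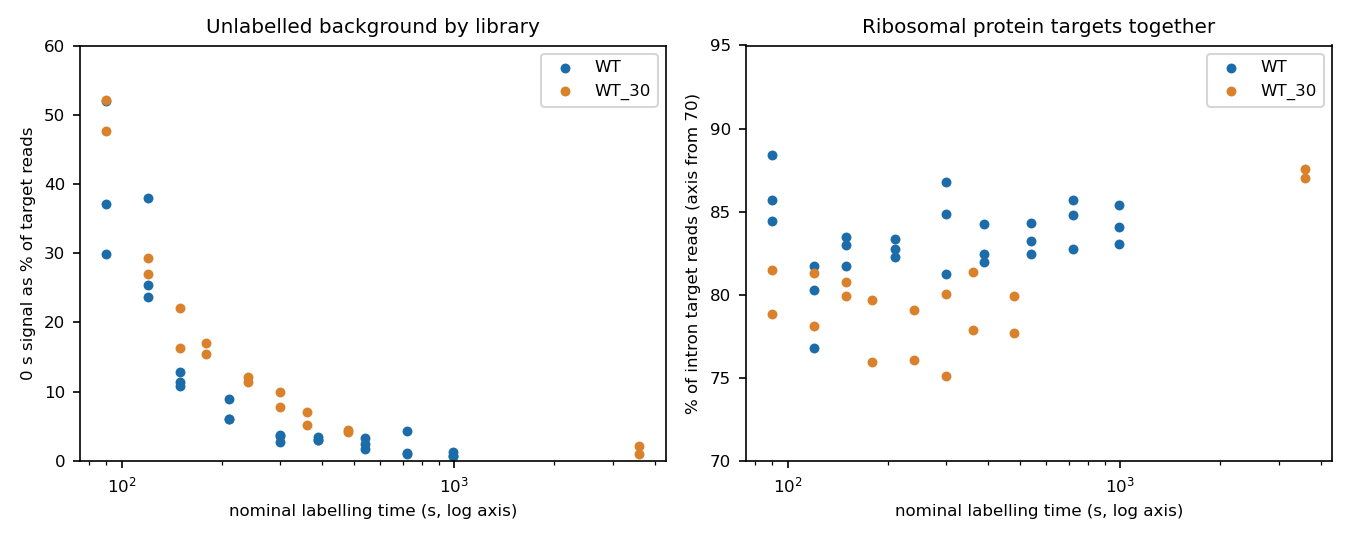
Left, signal of the 0 s library as a percentage of each library's intron target reads after scaling by spike-in reads; right, percentage of reads in the 104 ribosomal protein targets (axis from 70), both against nominal labelling time in seconds on a log axis, with 1 point per library. Background reaches 52.0% in WT at 90 s and is at most 1.29% at 990 s, and the ribosomal protein share in WT runs from 84.4% to 88.4% at 90 s and from 83.0% to 85.4% at 990 s.

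The state of the reads changed as well. Unspliced reads made up 8.92%, 7.29% and 6.09% of reads at 90 s and 1.86%, 2.33% and 3.48% at 990 s. The median over the 9 fallers of the unspliced share of a target's reads was 65.7% at 90 s and 37.0% at 990 s. Over the 17 risers it was 25.5% and 4.39%, near the 28.7% and 6.70% of the 172 targets outside the ribosomal protein genes. All 276 tested targets had 18.9% and 3.50%. On spliced reads alone, 34 targets rose (12.6%) and 3 fell (1.12%) of 269. All 17 risers were called there, against 2 of the 6 fallers with enough spliced reads. The libraries are the same and most reads of the risers are too, so their calls there are not an independent check. CGI121 changed sign, from -1.93 to 0.55 (not called), and 91.7% of its reads at 90 s and 51.7% at 990 s were unspliced. URA2 held at -2.22, with 13.2% unspliced at both times, and RPS13 at -1.30; these were the 2 fallers still called.

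Among unspliced reads taken alone, ribosomal protein targets lost ground. They held 53.0%, 47.4% and 49.6% of unspliced reads at 90 s and 23.5%, 32.9% and 31.3% at 990 s, lower in each course. Of 266 targets, 18 rose (6.77%) and 78 fell (29.3%), and 58 of the 78 were ribosomal protein targets; with TMM factors the split was 47 risers and 27 fallers and the median moved from -0.49 to 0.02. Without course 1 or without course 2 edgeR called none (14 rose and 34 fell, and 13 and 59, without adjustment). MTR2 and YRA1, whose reads were 87.2% and 78.3% unspliced at 90 s, rose in this fraction by 2.23 ± 0.48 and 2.03 ± 0.40. Of the 26 targets called on all reads, 5 fallers were also called as falling here and 1 riser, PTC7, as rising (1.72 ± 0.45). UBC9, which rose on all reads, fell by 1.52 ± 0.60 among unspliced reads.

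The number of uridines in a transcript sets how many sites can take the label. Outside the ribosomal protein genes, the log2 change fell with log2 of the uridine number of the coding sequence (Pearson r = -0.28, Spearman rho = -0.28, 168 targets, which share the same 6 libraries and also differ in length and expression). The 41 targets with 300 or more uridines had a median log2 change of 0.02, against 0.60, 0.60 and 0.55 in the lower quartiles. After background subtraction rho was -0.36 and the median of the top quartile -0.44. Among 104 ribosomal protein targets rho was -0.06 for this comparison. It was -0.30 for 720 s against 120 s, where the other targets also had -0.30. For unspliced reads it was -0.39 (103 targets) against -0.20 (159 targets). The uridine number leaves out the intron, which unspliced RNA still holds, so it undercounts the label sites there. URA2 has the most uridines, 2065 in 6645 coding bases, while the median over called risers was 212 and over the 7 fallers with a coding length 208. The part of label density in the changes was not tested.

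**Figure D4:**
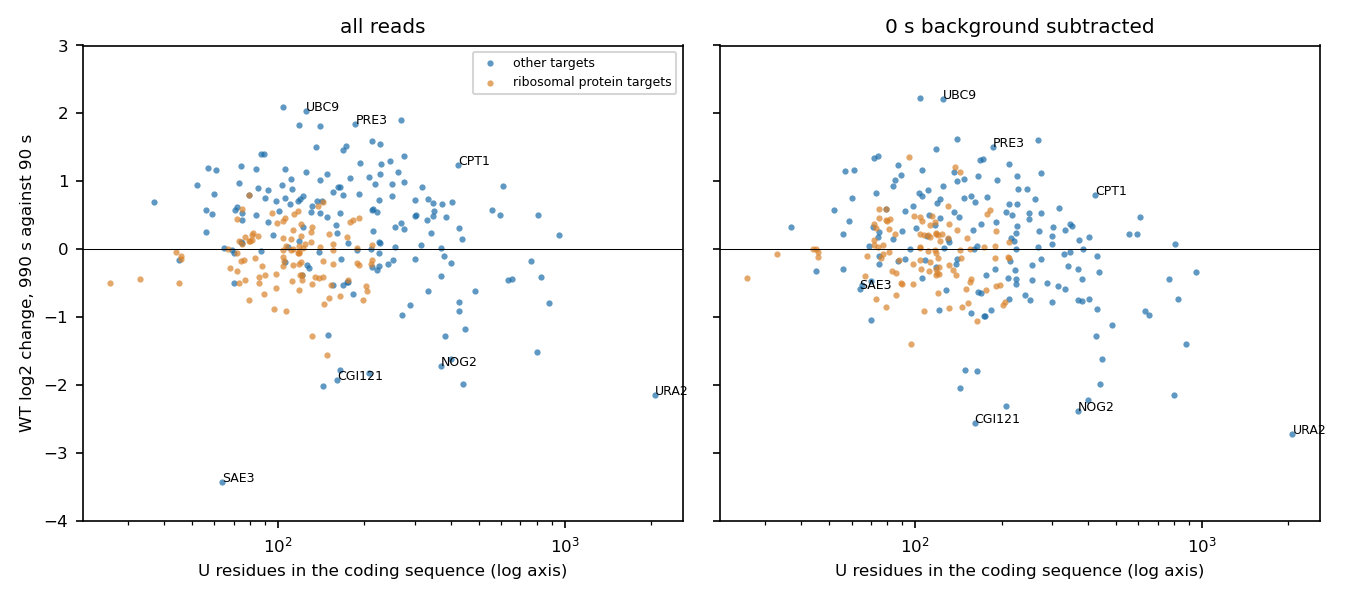
Log2 change in share from 90 s to 990 s in WT against the number of uridines in the coding sequence (log axis), 1 point per target, for all reads and after 0 s background subtraction (points beyond -4 to 3 lie outside the axis). URA2, with 2065 uridines, lies at the lower right of both panels.

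The courses did not agree equally. Across 276 targets the log2 ratio of 990 s to 90 s correlated between courses 1 and 2 at r = 0.87, between 1 and 3 at 0.39 and between 2 and 3 at 0.35, as a description over targets of shared libraries. Among ribosomal protein targets the values were 0.80, -0.03 and -0.09. With course 3 left out UBC9 had 1.74 ± 0.22, URA2 -1.87 ± 0.22 and NOG2 -2.14 ± 0.18. Without the course as a block, 46 targets rose (16.7%) and 23 fell (8.33%), among them all 26. Libraries held 929102, 1337266 and 3417742 intron target reads at 90 s and 8128746, 7735013 and 5162504 at 990 s, and chi-squared per degree of freedom between libraries of 1 time ran from 36.1 to 2004, so spread exceeds counting error by far.

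The WT_30 series, which has its own libraries and courses, gave a partly different picture. At 480 s against 90 s, 63 of 285 targets rose (22.1%) and 31 fell (10.9%), or 31 and 19 without the course as a block. Of the 17 WT risers 16 had the same sign and 8 were called, among them PRE3, which went from 125 and 145 to 265 and 267 reads per 100000 (0.98 ± 0.16, adjusted p = 0.00183). UBC9 went from 83.8 and 88.9 to 137 and 115 (0.55 ± 0.19, adjusted p = 0.0411). Of the 9 fallers 8 had the same sign and 3 were called, among them URA2, from 274 and 584 to 160 and 109 (-1.52 ± 0.32, adjusted p = 0.00434). CGI121 rose instead, from 12.1 and 16.8 to 24.1 and 25.7 (0.82 ± 0.24, adjusted p = 0.0212). Secretory targets again had risers and no fallers, 10 of 23.

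At 3600 s the risers parted. Against 90 s, 44 of 282 WT_30 targets rose (15.6%) and 127 fell (45.0%), and 6 of the 17 WT risers kept their sign. SAR1 and SNC1 were called as rising, by 0.49 ± 0.20 and 0.59 ± 0.21, while BET4, PHO85, CNB1, TAF14, TDA5 and PBA1 were called as falling. BET4 went from 12.1 and 24.1 at 90 s to 26.6 and 23.7 at 480 s and 7.68 and 6.44 at 3600 s. URA2 went on down to 45.3 and 69.5 (-2.86 ± 0.34), NOG2 fell from 258 and 298 to 60.8 and 59.0 (-2.22 ± 0.20) and SPT14 by 2.69 ± 0.28. SNR17B rose, from 78.8 and 117 to 169 and 174 (0.82 ± 0.22), while SNR17A fell by 1.85 ± 0.25. Ribosomal protein targets took 81.5% and 78.8% of reads at 90 s and 87.6% and 87.0% at 3600 s. Of 23 secretory targets 6 rose and 9 fell at 3600 s, with a median log2 change of -0.37. The 90 s libraries held an estimated 52.2% and 47.7% of background, and both contrasts share them.

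**Figure D5:**
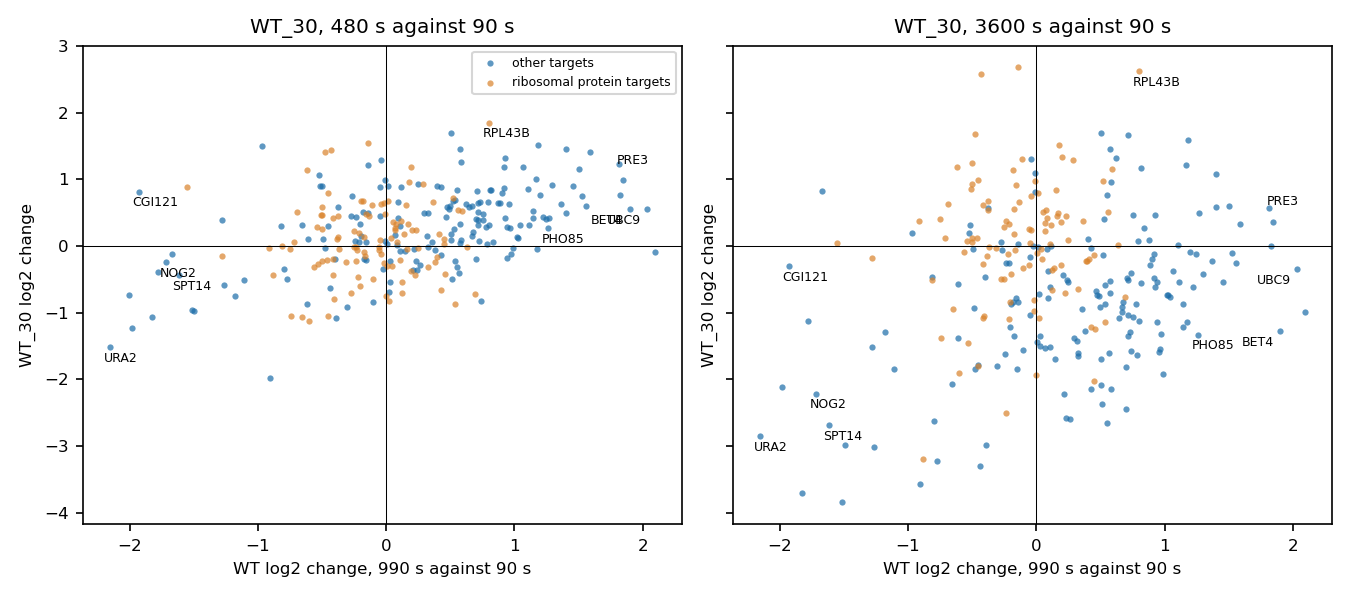
Log2 change in share in WT_30 (y axis; left 480 s and right 3600 s against 90 s) against that in WT from 90 s to 990 s (x axis), 1 point per target. URA2 lies at the lower left of both panels, PRE3 at the right above 0 in both, CGI121 changes side on the left, and BET4 lies below 0 at 3600 s.

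Across targets outside the ribosomal protein genes the WT change correlated with that of WT_30 at 480 s (r = 0.51, rho = 0.44, 170 targets) and at 3600 s (r = 0.41, rho = 0.34, 169 targets). Among 104 ribosomal protein targets the values were 0.06 and 0.09. For log2 uridine number rho was -0.52 at 3600 s over 173 targets outside the ribosomal protein genes, and -0.23 over the 104 ribosomal protein targets. The median log2 change over the top quartile of uridine number was -1.56 there, against -0.07 in the lowest quartile.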

How the data were processed

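Whole-number counts of all reads and of unspliced reads per intron target were deposited by the authors without scaling, per the file headers. The submitters' processing notes name STAR 2.7.2b and the genome build R64; how reads were assigned to targets is not given in the sources used here. Counts come from PCR-amplified reads, and no molecular identifiers are mentioned. Rows of S. pombe spike-in RNA were left out of totals and used only for amounts and background. Spliced reads are all reads less unspliced reads.

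Counts were tested with edgeR 4.0.16 (R 4.3.3), quasi-likelihood fit and test, with the sum of intron target reads as library size, no TMM, the time course as a block, targets with a mean of at least 20 reads over the libraries compared, and Benjamini-Hochberg adjustment at 0.05 over all targets tested. The WT_30 fits used all 18 labelled libraries of that series with time as a factor, and share 1 estimate of the spread. The choice between edgeR's default and its robust dispersion estimates was made after both results had been seen: robust estimates gave 0 calls for 990 s against 90 s (lowest adjusted p = 0.0518) and the default 26. Courses pair the libraries per the labels; deviations of same-numbered libraries from their group means correlated at 0.0969, -0.553 and -0.285. Alternatives used limma 3.58.1 and DESeq2 1.42.0. Background is the 0 s library of the same course scaled by spike-in reads. Its subtraction from spliced reads and from list shares, and limma without subtraction, were added after seeing the data.

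The targets, gene lists and tests were chosen with earlier results of these data known. Named targets are up to 12 of the largest changes per direction past the threshold, with 1 sign in all courses, no overlap and a mean of at least 100 reads, the extremes of each of 14 lists, all targets of genes with several, and 15 fixed genes; others are marked. Only the 990 s against 90 s test was run on simulated data, with TMM factors, which the reported test does not use. There 15 of 20 targets with a log2 change of 1 in size were called, and 20 of 20 with 2. Of 239 targets without a change 1 was called. The simulation had 1 fixed dispersion and no course effect, so it does not show how the test behaves on these courses. Of 308 targets, 305 matched the R64 annotation.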

Additional observations from a re-analysis of the deposited data

How the results depend on the processing

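For 990 s against 90 s in WT (17 risers, 9 fallers), the counts depended on the processing. No target was called in either direction with robust estimates, with the count minimum raised, with limma on log2 shares without subtraction, or with the 0 s background subtracted from all or from spliced reads (0 and 0 in each). Risers and fallers numbered 29 and 27 with DESeq2, 51 and 23 when all 27 labelled libraries shared 1 spread, 11 and 18 without ribosomal protein targets, 34 and 3 on spliced reads, 46 and 23 with no replicate block, and fallers 14 with no count minimum. TMM factors gave 20 and 12. Leaving out 1 course gave 0 to 89 risers and 0 to 55 fallers.

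For 720 s against 120 s (1 riser, 17 fallers), TMM gave 7 and 30, no count minimum 0 and 7, no replicate block 3 risers, and leaving out 1 course 0 to 6 risers and 0 to 33 fallers. For unspliced reads (18 and 78), TMM gave 47 and 27, and leaving out 1 course 0 to 44 and 0 to 71; TAD3 intron target 2, at -0.08, ran from -0.91 to 1.11 as courses were left out. Leaving out 1 course moved the trend (64 and 51) to 39 to 60 risers and 30 to 45 fallers, the lowest without course 3. For WT_30 at 480 s, no replicate block gave 31 and 19. With 2 courses, leaving 1 out of WT_30 gives no test.

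CGI121 reversed on spliced reads (0.55) and on spliced reads with background subtracted (0.25). With library size from spike-in reads all 276 targets rose and 0 fell, because the quantity is then an amount and not a share: the log2 changes became 3.35 for URA2, 3.56 CGI121, 3.79 NOG2, 3.83 SNR17B, 3.88 SPT14, 3.50 BUD25, 4.21 RPS13, 4.88 ACT1, 4.68 ASC1, 5.20 BMH2, 4.32 DBP2, 5.22 EFM5 intron target 2, 5.05 GCR1, 3.72 GOT1, 4.98 HAC1, 5.01 HOP2 intron target 2, 4.71 HPC2, 4.68 NMD2, 5.13 RIM1, 4.07 RPL18B, 5.13 RPL30, 5.29 RPL7A intron target 1, 5.26 RPL7B intron target 1, 5.46 RPS14A, 5.48 RPS14B, 5.30 RPS22B intron target 1, 2.27 SAE3, 4.39 SNR17A, 5.43 and 4.98 the SUS1 targets 1 and 2, 5.45 and 5.32 the TAD3 targets 1 and 2, and 5.34 UBC12. The cause of the other shifts was not tested. Targets under 20 reads on average were not tested.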
